A study of Oryzias latipes with 50 samples.

Results

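The genes jpt2, rybp, matn3, mocs2 and slain1 were grouped as genes with a narrow winter peak, chosen by their deposited expression values on winter and summer dates of these same libraries, and were found by their symbols in the deposited expression table. All 5 were present among 23455 genes, and all 5 reached the mean of 1 FPKM over all libraries that was required of the 16493 genes tested. FPKM is the number of sequenced fragments scaled by transcript length and library size, so levels of different genes can be set side by side per length. Their identifiers in the table were 101157371 for jpt2, 101165799 for rybp, 101170563 for matn3, 101172945 for mocs2 and 101169571 for slain1. The members were picked for being high in winter, so their levels by season, the width of their peaks and the dates of their peaks are given as description without a test. Tests were kept for comparisons of the 2 years with each other, for other genes, and for differences between libraries of 1 date.

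The 50 libraries came from medaka (Oryzias latipes), a small freshwater fish that breeds in the long days of spring and summer, housed outdoors in Okazaki, Japan, at latitude 35.0°N. No genotype, strain, sex, age or treatment other than the season was stated in the labels, and all groups were therefore taken as untreated fish that differed in sampling date. RNA was taken from a block of brain holding the hypothalamus, the pituitary and the ventral telencephalon. It was sampled at about 8 pm on 25 dates, the first in September 2015 and the last in September 2017, and each date gave 2 libraries. Pooling of fish is not described in the labels, nor is it stated that the 2 libraries of a date are independent collections, so p-values that rest on the spread between them may measure technical spread.

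Sampling fell between 0.93 and 3.38 h after sunset, so the time since darkness changed with the season along with the date. The libraries' FPKM sums ran from 278558 to 341666. The smallest values of 130 genes put the relative depth of the libraries between 0.849 and 1.06, and absolute depth is unknown. The 2 libraries of a date correlated at a median r of 0.982 across genes, against 0.950 between dates. The pituitary, hypothalamic and telencephalic marker genes that were matched by name were all detected. The hypothalamic ones were hcrt and oxt only, as pmch and avt were not matched. The 2 tested markers of midbrain and hindbrain, gnrh2 and zic1, were lower in the second year. The summed level of the matched markers was 31.6 to 71.8 FPKM in the first year and 24.7 to 34.0 FPKM in the second. The level of gnrh2 was 0 in 25 of the 50 libraries. The block is a bulk sample, in which fewer cells of a type and less RNA per cell cannot be told apart.

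The 5 genes have no single pathway in common. The protein of jpt2 (Jupiter microtubule associated homolog 2) is a small microtubule-associated protein that in human cells also binds the calcium-releasing messenger NAADP. The product of slain1 promotes microtubule growth by working with proteins that track growing microtubule ends. The product of rybp (RING1 and YY1 binding protein) is a subunit of variant Polycomb repressive complex 1, which places ubiquitin on histone H2A and keeps genes silent. Matrilin 3, the product of matn3, is an extracellular matrix protein best known from cartilage. The mocs2 gene codes for subunits of molybdopterin synthase, which makes the molybdenum cofactor used by sulfite oxidase, xanthine dehydrogenase and aldehyde oxidase.

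All 5 genes were higher on every date from December to February than on any date from June to August. The range of levels was widest for jpt2, which averaged 255 ± 48.5 FPKM in winter and 32.3 ± 3.01 FPKM in summer (SD, n = 6 dates each). Winter levels were 39.0 ± 10.5 FPKM for rybp against 4.84 ± 1.33 FPKM in summer. They were 18.6 ± 9.37 against 3.38 ± 1.50 FPKM for mocs2 and 18.5 ± 4.83 against 3.68 ± 0.728 FPKM for slain1. The lowest of the 5 was matn3, at 10.9 ± 3.50 against 0.803 ± 0.344 FPKM. On the log2(FPKM + 1) scale, which understates the change of low genes, winter exceeded summer by 2.93 for jpt2, 2.78 for rybp, 2.69 for matn3, 2.16 for mocs2 and 2.03 for slain1.

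**Figure D1:**
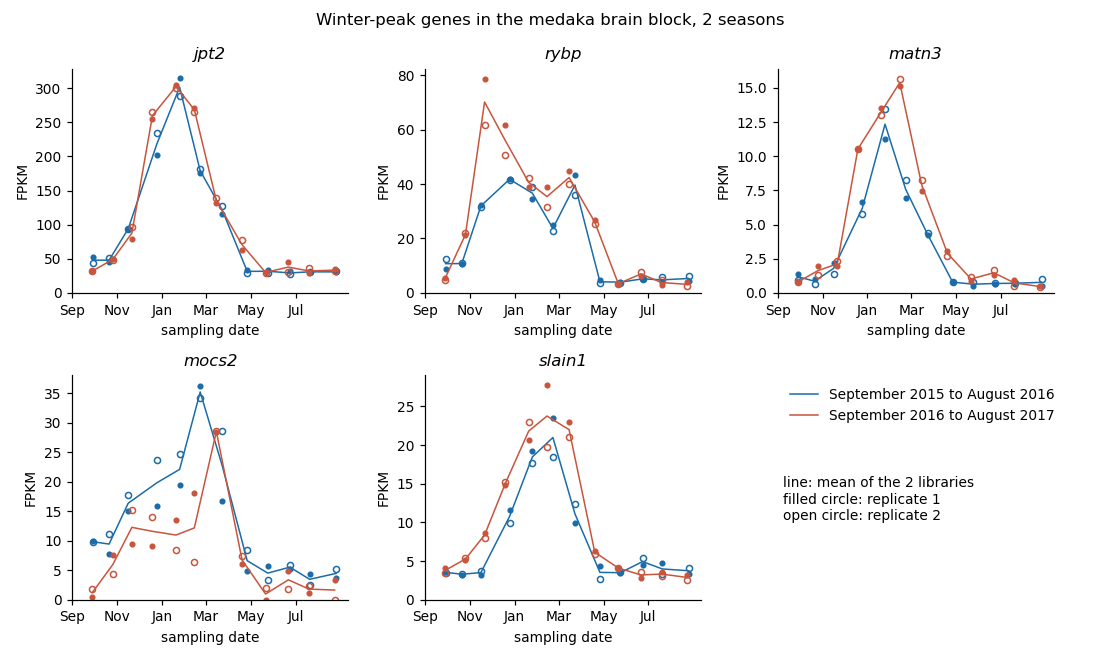
FPKM of the 5 genes by sampling date in the season from September 2015 (blue) and the season from September 2016 (red), with 2 libraries per date as circles and their mean as a line. Levels were low from May to August in both seasons. The January maxima of jpt2 coincided at 302 and 302.5 FPKM, while the rybp maximum was 41.7 FPKM in the first season and 70.2 FPKM in the second.

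The jpt2 peak had the same height and month in both winters. In the first season the date means were 47.8 FPKM in September, 48.0 in October, 93.8 in November, 218 in December, 302 in January, 179 in February and 121 in March. In the second they were 31.9, 49.0, 87.5, 260, 302.5, 269 and 135 FPKM in the same months. The 2 libraries of the peak date gave 314.6 and 288.6 FPKM on 25 January 2016, and 304.6 and 300.5 FPKM on 20 January 2017. The peak thus stood 10.3 times above the lowest date of the first season and 10.1 times above that of the second.

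Width was read as the days from the first upward to the last downward crossing of a level by the line through the date means. That level, midway between the season's lowest and highest date, is called the half-height level here. A dip below the level between the 2 crossings is counted in the width. For jpt2 the width was 82.7 days in the first season, from 8 December to 29 February, and 95.2 days in the second, from 4 December to 9 March. The curves through each replicate gave 71.6 and 93.4 days in the first season and 93.7 and 97.5 days in the second. The replicate ranges of the 2 seasons nearly touch, and monthly sampling sets the resolution. In either season 3 dates lay above the half-height level. On the log2 scale, where the midway level is lower, the jpt2 widths were 134 and 131 days, so its small difference between seasons depends on the scale.

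The matn3 peak was the narrowest of the first season and followed that of jpt2 closely. It rose from 1.79 FPKM in November 2015 to 6.20 in December and 12.3 in January, then fell to 7.59 in February. In the second winter it went from 2.12 FPKM in November to 10.5 in December, 13.3 in January and 15.4 in February. The peak-date libraries read 11.2 and 13.5 FPKM on 25 January 2016, and 15.1 and 15.7 FPKM on 14 February 2017, so the second peak was later and 1.25 times as high. Its width was 67.4 days in the first season, from 26 December to 3 March, and 95.5 days in the second, from 10 December to 16 March. Each replicate of the second season, at 94.5 and 97.1 days, lay above each of the first, at 77.9 and 62.7 days.

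The slain1 peak was centred on February in both winters. Its date means were 3.51 FPKM in November 2015, 10.8 in December, 18.5 in January and 21.0 on 22 February 2016. They were 8.36 FPKM in November 2016, 15.0 in December, 21.8 in January, 23.7 on 14 February 2017 and still 22.0 in March. The February libraries read 23.5 and 18.4 FPKM in 2016 and 27.7 and 19.8 FPKM in 2017, and these overlap. The width was 80.3 days in the first season, from 31 December to 20 March, and 113 days in the second, from 12 December to 4 April. The replicate curves gave 74.1 and 92.8 days against 100 and 116 days, without overlap.

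The rybp curve was broad with 2 maxima and was not a narrow peak. In the second season it declined from November to February before a smaller maximum in March. In the first season it reached 32.0 FPKM in November, 41.7 on 25 December, 36.6 in January, 23.7 in February and 39.6 in March. In the second it reached 70.2 FPKM on 21 November, 56.1 in December, 40.6 in January, 35.4 in February and 42.4 in March. The 2 libraries read 24.8 and 22.6 FPKM in February 2016 and 43.5 and 35.8 in March 2016, so the February dip of the first year lies outside their spread. In February and March 2017 they read 39.1 and 31.7 against 44.8 and 40.0 FPKM, again without overlap but by a small margin. The width was 155 days in the first season, from 5 November to 8 April, and 145 days in the second, from 3 November to 28 March. The second width spans February 2017, which at 35.4 FPKM lay below the half-height level of 36.6 FPKM. The replicates gave 156 and 153 days in the first season and 140 and 153 days in the second, and on the log2 scale the second season was the wider, at 190.2 against 165 days.

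The width of mocs2 was poorly determined. Its highest date was 22 February 2016 at 35.2 FPKM, with libraries at 36.2 and 34.2, and 16 March 2017 at 28.5 FPKM, with libraries at 28.4 and 28.6. From November to February the date means lay between 16.4 and 35.2 FPKM in the first season and between 11.0 and 12.3 FPKM in the second, without overlap. Single libraries of these months did overlap, as the lowest of the first season read 15.0 FPKM and the highest of the second 18.0 FPKM. The width was 102 days in the first season and 47.4 days in the second, in which March was the only date above the half-height level. The single replicates gave 52.3 and 141 days in the first season and 73.0 and 141 days in the second, so the seasons overlap, and on the log2 scale the second was the wider, at 176 against 162 days. The 141 days of replicate 2 in the second season span December to February, at 14.1, 8.49 and 6.32 FPKM, below its half-height level. The libraries of February 2017 read 18.0 and 6.32 FPKM, and mocs2 was listed at 0 in 1 library of May 2017 and 1 of August 2017. The median difference between libraries of a date was 0.60 on the log2 scale for mocs2, larger than that of 98.8% of genes tested. It was 0.12 for jpt2, 0.16 for rybp, 0.18 for matn3 and 0.15 for slain1.

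Measured against other winter genes, the label of a narrow peak described some of the 5 and not others. The comparison set held 1007 genes with their highest date from November to March in both seasons and a range of at least 1 on the log2 scale in each, a definition set after the data had been seen, and it included all 5. Its median width was 126 days in the first season (quartiles 93.3 and 154) and 124 days in the second (quartiles 97.7 and 158). Of the genes in the set with a width, 12.3% in the first season and 21.6% in the second were narrower than matn3. The shares narrower than jpt2 were 18.1% and 21.3%, and those narrower than slain1 17.3% and 40.6%. For mocs2 they were 31.2% and 2.22%. For rybp they were 75.9% and 64.7%, which places its peak on the broad side of the median in both seasons. Read on the log2 scale, where low levels weigh more, matn3, slain1 and jpt2 were still below the median width in both seasons, while mocs2 at 162 and 176 days was above the medians of 147 and 153 days.

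**Figure D2:**
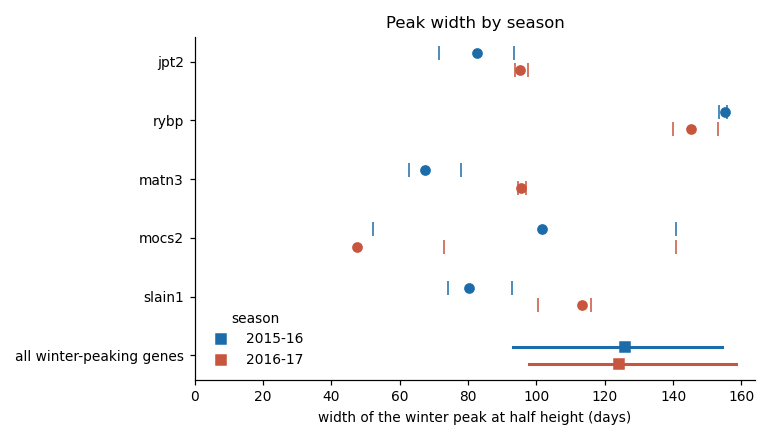
Width of the winter peak at the half-height level in days, for each of the 5 genes (circle: curve through the date means; ticks: curves through each replicate) and for 1007 winter-peaking genes (square: median; bar: quartiles), by season. The rybp widths of 155 and 145 days lie above both medians, and the ticks of mocs2 span 52.3 to 141 days in the first season.

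The order in which the genes left the peak differed by year in the place of rybp only. Single replicates of rybp gave days 100.3 and 97.0 of the year in 2016, which overlap those of mocs2. In 2017 they gave days 82.9 and 93.8, which overlap those of slain1 at 91.2 and 94.3. In spring 2016 the curves fell through the half-height level on 29 February for jpt2, 3 March for matn3, 20 March for slain1, 30 March for mocs2 and 8 April for rybp. In spring 2017 the dates were 9 March, 16 March, 4 April, 7 April and 28 March in the same order of genes. The second spring was therefore later by 7.94 days for jpt2, 11.9 for matn3, 14.3 for slain1 and 7.03 for mocs2, and earlier for rybp, whose half-height level was higher in the second season (36.6 against 22.8 FPKM). Single replicates gave days 78.0 and 100.2 of the year in 2016 and 97.2 and 98.7 in 2017 for mocs2, which overlap, and for the other 3 later genes each replicate was later in 2017. On the log2 scale the direction for rybp turned, from day 99.7 in 2016 to day 118 in 2017, and the other 4 remained later in 2017. On that scale rybp was the last of the 5 genes in 2017. Day length computed for these dates ran from 11.2 h (jpt2) to 12.7 h (rybp) in 2016 and from 11.5 h (jpt2) to 12.6 h (mocs2) in 2017. At the upward crossing, which fell between 5 November and 31 December in the first season, it lay between 9.64 and 10.4 h. In the second season it lay between 9.67 and 10.4 h for the 4 genes that crossed between 3 November and 12 December, and at 10.9 h for mocs2, which crossed on 19 February.

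For jpt2, rybp, matn3 and slain1 the level of 26 April 2016 was close to that of May 2016, at ratios of 0.994, 1.04, 1.24 and 1.01, whereas that of 20 April 2017 was 2.35, 7.76, 2.85 and 1.50 times that of May 2017. For mocs2 April was at 6.62 FPKM in 2016 and 6.75 in 2017, above May in both years. The level of jpt2 was 121 FPKM on 23 March 2016, 31.5 on 26 April and 31.7 on 24 May. It was 135 FPKM on 16 March 2017, 70.5 on 20 April and 29.9 on 22 May. The March level was thus 3.85 times the April level in 2016 and 1.92 times in 2017, when a further fall by a factor of 2.35 came between April and May.

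The contrast between the years was strongest for rybp. Its level went from 39.6 FPKM in March 2016 to 4.08 in April, with libraries at 4.55 and 3.60, a 9.73-fold step in 34 days. In 2017 it went from 42.4 FPKM in March to 26.0 in April, with libraries at 26.8 and 25.1, and only then to 3.35 in May, a 7.76-fold step. In the set of winter-peaking genes, 0.298% had a steeper fall than rybp between neighbouring dates in the first season, and 1.19% in the second. These ranks are descriptions, as rybp was picked for being high in winter and a larger range allows a steeper step.

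On the log2 scale the other 3 genes fell most steeply between March and April in 2016. In FPKM, larger steps came earlier for matn3, from 12.3 in January to 7.59 in February 2016. The same held for slain1, from 21.0 in February to 11.1 in March 2016. The level of matn3 went from 4.28 to 0.785 FPKM in 2016, and from 7.88 to 2.89 and then 1.01 FPKM in May in 2017. The level of slain1 went from 11.1 to 3.54 FPKM in 2016 and from 22.0 to 6.14 FPKM in 2017. The level of mocs2 went from 22.7 to 6.62 FPKM in 2016, and from 28.5 to 6.75 and then 0.970 FPKM in May in 2017. In both seasons the steepest fall of each of the 5 genes was steeper than the median of the winter-peaking set, which was -0.65 log2 units per 30 days in the first season and -0.64 in the second. The set needed a range of only 1 on the log2 scale, while winter exceeded summer by 2.03 to 2.93 in the 5 genes. Their steeper falls therefore follow in part from how they were picked.

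**Figure D3:**
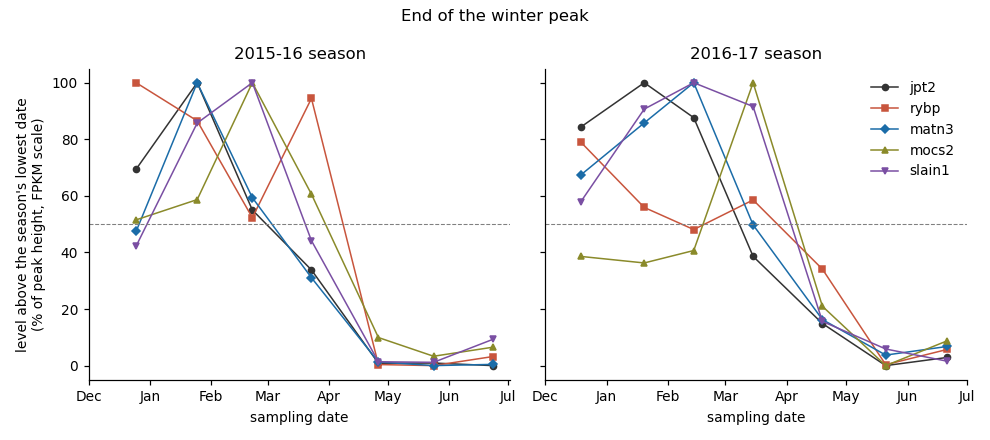
Level of each gene from December to June as a percent of its peak height above the season's lowest date, on the FPKM scale, in the first season (left) and the second (right); the dashed line marks the half-height level. All 5 genes were at or below 10% on 26 April 2016, while on 20 April 2017 jpt2 stood at 14.9%, slain1 at 15.6%, matn3 at 16.3%, mocs2 at 21.0% and rybp at 34.1%.

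Whether the March to April fall differed in size between years was tested with limma across all genes, from the spread between libraries of a date. For this contrast any constant step between the years cancels. Across all genes, 8.14% passed at an adjusted p of 0.05, and 3.32% passed with a smaller fall or larger rise in 2017. The number of genes that passed, 1343, went to 803 without replicate 1 of March 2016, 738 without replicate 2 of April 2016, 787 without replicate 1 of March 2017 and 760 without replicate 1 of April 2017. Of the 5 genes, 2 passed, both with the smaller fall in 2017. The jpt2 level fell by 1.92 in 2016 and by 0.94 in 2017 on the log2 scale, a difference of 0.98 ± 0.18 (SE, adjusted p = 0.000825 by limma with Benjamini-Hochberg). The rybp level fell by 3.00 and by 0.68, a difference of 2.32 ± 0.26 (adjusted p = 4.54e-07 by limma). For matn3 the difference was 0.37 ± 0.22 (adjusted p = 0.333 by limma), for slain1 -0.25 ± 0.23 (0.553) and for mocs2 -0.31 ± 0.73 (0.845), none of which passed.

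The sampling days differ between the springs, at 34 days from March to April in 2016 and 35 in 2017, with April sampled 6 days earlier in 2017. March was sampled on day 23 in 2016 and day 16 in 2017, and the test was not repeated at matched days. Summed erythrocyte markers also moved, from 652 to 1686 FPKM between March and April 2016 and from 876 to 3343 FPKM in 2017, and summed oligodendrocyte markers from 336 to 540 and from 230 to 336 FPKM. Their part in the difference was not tested.

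Month by month, most of the differences between years that passed in the 5 genes lay from autumn to April, and January had none at a pseudocount of 1. Of the 60 pairs of a gene and a month, 22 passed, 18 with the higher level in the second year and 4 with the lower, by limma with adjustment over all genes and months, where 21.2% of all pairs passed. In January and July none passed, nor was any unadjusted p under 0.05 (0 of 5 genes in each). The share of all genes that passed in these months alone is not given here. The absence of calls can therefore not be read as a trait of the 5 genes. Of these 22 calls, 11 held whichever of the 50 libraries was left out, and all 11 were higher in the second year. The share of all pairs that passed as higher over all months is not given here, nor is the share that held in this way. The spread of all calls over the months was not compared either. Neither the direction nor the months of the calls can therefore be read as a trait of the 5 genes. Low summer levels, such as the mean of 0.803 FPKM for matn3, also shrink differences on the log2(FPKM + 1) scale. At a pseudocount of 5, mocs2 in January (-0.77, adjusted p = 0.0442 by limma) and rybp in December (0.38, 0.0298) also passed. So did jpt2 in June after quantile normalization (0.33, 0.0323) and median ratio scaling (0.38, 0.0176). The August difference of mocs2 passed after quantile normalization (-1.38, 0.048) and at a pseudocount of 0.1 (-2.95, 0.0336). Without replicate 2 of July 2017, the July difference of rybp was -0.57. Other calls were lost under such settings. At a pseudocount of 5 they were rybp in August (adjusted p = 0.0537 by limma) and matn3 in October (0.0564). Those of mocs2 in May (0.078) and slain1 in June (0.0641) were lost there too. At a pseudocount of 0.1 they were rybp (0.055) and mocs2 (0.236) in February and slain1 in December (0.0718). Also lost were slain1 in June after quantile normalization (0.0585) and in December without the filter (0.065).

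In April 4 of the 5 genes were higher in 2017, where 9.31% of all genes were. The jpt2 libraries read 34.1 and 28.9 FPKM in 2016 and 63.3 and 77.7 FPKM in 2017, without overlap (log2 difference 1.14 ± 0.13, adjusted p = 2.45e-07 by limma). For rybp the values of 4.55 and 3.60 against 26.8 and 25.1 FPKM gave a difference of 2.42 ± 0.18 (adjusted p = 8.96e-11 by limma). For matn3 the libraries read 0.780 and 0.790 against 3.09 and 2.69 FPKM, a difference of 1.12 ± 0.16 (adjusted p = 7.90e-06 by limma). All 3 genes were thus separated between the years by more than the spread of their libraries. For slain1 the values were 4.40 and 2.67 against 6.33 and 5.95 FPKM, a difference of 0.68 ± 0.16 (adjusted p = 0.00297 by limma), which no longer passed without replicate 2 of April 2016 (0.40, adjusted p = 0.113). The mocs2 libraries overlapped, at 4.86 and 8.37 against 6.02 and 7.47 FPKM. When the first year was interpolated to the sampling day of the second, the April differences were 0.80 for jpt2, 1.89 for rybp, 0.85 for matn3 and 0.43 for slain1.

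The earlier months separated the genes. In February 3 of the 5 were higher in 2017, against 5.94% of all genes; jpt2 read 176 and 182 FPKM in 2016 and 272 and 266 in 2017 (0.58 ± 0.13, adjusted p = 0.00153 by limma). The matn3 libraries of February read 6.95 and 8.23 against 15.1 and 15.7 FPKM (0.94 ± 0.16, adjusted p = 8.69e-05 by limma). On 22 February 2016 against 14 February 2017 the sampling day differed too, and interpolation gave 0.37 for jpt2 and 0.75 for matn3. In March 2 of the 5 were higher, against 4.31% of all genes. They were matn3 (0.75 ± 0.16, adjusted p = 0.00099 by limma) and slain1, at 9.86 and 12.3 FPKM in 2016 against 23.0 and 21.0 in 2017 (0.93 ± 0.16, adjusted p = 0.000121 by limma). March was sampled on day 23 in 2016 and day 16 in 2017, and interpolation gave 0.59 for matn3 and 0.73 for slain1.

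October and November levels were also higher in the second year for rybp and slain1. Both months were sampled later in the second year, on 26 October and 21 November against 21 October and 16 November. December was sampled earlier, on 19 against 25 December. The part of these days in the differences was not tested. In September the date means of rybp were 10.7 FPKM in 2015 and 5.16 FPKM in 2016, and those of slain1 were 3.55 and 3.78 FPKM. Those of jpt2 were 47.8 and 31.9 FPKM. September 2015 was left out of the tests between years, so these September levels were not tested. In October 3 of the 5 were higher, against 8.23% of all genes, and rybp read 10.7 and 10.9 FPKM in 2015 and 21.1 and 21.8 in 2016 (0.93 ± 0.18, adjusted p = 0.000502 by limma). In November 2 of the 5 were higher, against 9.74%. They were rybp, at 32.4 and 31.5 against 78.6 and 61.7 FPKM (1.10 ± 0.18, adjusted p = 7.38e-05 by limma), and slain1, at 3.24 and 3.78 against 8.68 and 8.04 FPKM (1.06 ± 0.16, adjusted p = 2.48e-05 by limma). In December 2 of the 5 were higher, against 7.11%, and matn3 read 6.64 and 5.75 FPKM in 2015 and 10.5 and 10.5 in 2016 (0.68 ± 0.16, adjusted p = 0.0024 by limma). No call was made for jpt2 from October to January as deposited, but its December difference passed after quantile normalization (0.35, adjusted p = 0.023 by limma) and median ratio scaling (0.32, 0.0488).

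The other 11 calls were each lost in at least 1 of the 50 fits. In the same autumn and winter months they were the higher second-year values of matn3 (0.50) and slain1 (0.55) in October, slain1 in December (0.45) and rybp in February (0.55). The December call of slain1 (adjusted p = 0.0473 by limma) was lost in 30 of the 50 fits, in 27 of them with the difference itself unchanged. Those of slain1 in October (0.52 and 0.51) and of rybp in February without replicate 1 of February 2016 (0.62, adjusted p = 0.0541 by limma) were likewise lost at about the same difference. In summer, matn3 was higher in June 2017 (0.55, where 8.27% of all genes were higher) and slain1 lower (-0.50, where 10.2% were lower), and rybp was lower in August 2017 (-0.61, 14.8% lower). The remaining 3 were those of mocs2, whose libraries varied most. It was lower in February 2017 (-1.62, 20.1% of genes lower) and May 2017 (-1.65, 9.72%), and higher in September 2017 than in September 2016 (2.04, 16.3% higher), when it read 8.23 and 7.01 against 0.530 and 1.84 FPKM. Without replicate 2 of February 2017, at 6.32 FPKM, the February difference was -0.93 (adjusted p = 0.291 by limma). Without replicate 1 of May 2017, listed at 0, the May difference was -0.88 (0.312).

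**Figure D4:**
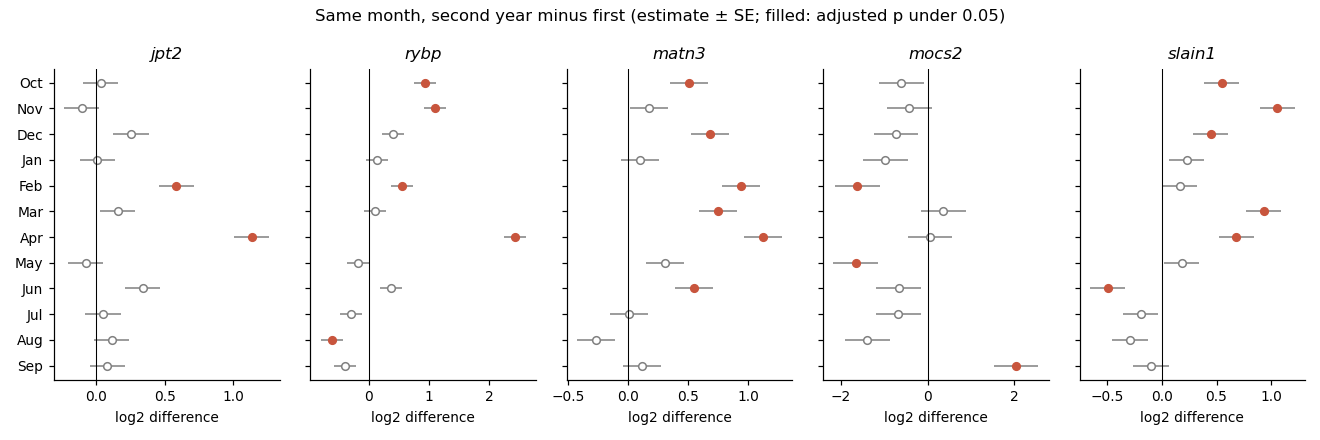
Difference on the log2(FPKM + 1) scale between the second and the first year in each month, October to September, with its standard error; filled circles have an adjusted p under 0.05 (limma, over all genes and months), and each panel has its own horizontal scale. The April points of jpt2 (1.14), rybp (2.42) and matn3 (1.12) are the largest of each gene, and no point is filled in January or July.

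Taken over 12 matched months, 1 of the 5 genes differed between years. This test took the means of dates as its unit, and 12% of all genes passed, 3.01% higher and 8.97% lower in the second year. The level of matn3 was higher in the second year in 11 of 12 months, at a mean of 4.86 against 3.12 FPKM (log2 difference 0.42 ± 0.11, adjusted p = 0.0242 by limma). The differences of jpt2 (0.21, adjusted p = 0.133 by limma, higher in 10 of 12 months), rybp (0.38, 0.234, 8 of 12) and slain1 (0.26, 0.175, 8 of 12) did not pass. The estimate for mocs2 was below 0 (-0.52, adjusted p = 0.180 by limma) and mocs2 was higher in the second year in 3 of 12 months. The scale of the libraries bears on such shares: of all genes called, 25.1% were higher in the second year as deposited, 46.0% after quantile normalization and 44.9% after median ratio scaling. The matn3 call held under both. Marker genes of the block also differed between the years. Of 6 oligodendrocyte markers 3 were lower and 0 higher in the second year. Their summed level ran from 258 to 540 FPKM in the first year and from 139 to 420 FPKM in the second. Of 5 telencephalon markers 2 were higher and 0 lower. The part of such markers in the year differences was not tested.

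Close relatives that could be tested did not have the winter rise. This comparison of winter with summer was run for other genes, of which 23.5% passed as higher and 31% as lower in winter over all genes tested (49.9% and 49.7% of calls higher after quantile and median ratio scaling, against 43.2% as deposited). Of the 5 tested relatives of jpt2 and slain1, none passed as higher, also at an unadjusted p under 0.05 (0 genes, limma), and 2 passed as lower. The paralog jpt1 stood at 22.2 ± 1.20 FPKM in winter and 21.9 ± 1.91 in summer (SD, n = 6 dates each), and its other copy, LOC101171135, at 24.6 ± 2.66 against 33.3 ± 2.10 (log2 difference -0.43, adjusted p = 0.000792 by limma). The values of slain2 were 6.21 ± 0.652 and 7.15 ± 0.896 FPKM (adjusted p = 0.0812 by limma), which passed as lower without replicate 1 of February 2017 (-0.23, adjusted p = 0.0292) or without replicate 2 of August 2017 (-0.20, 0.0476). A second gene described as slain1, LOC101162196, had 2.15 ± 0.270 FPKM in winter and 2.30 ± 0.575 in summer, without a call, and LOC101164071, described as slain-like, was lower in winter (-0.81, adjusted p = 8.16e-06 by limma).

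Of the 2 tested relatives of rybp, 0 were higher in winter by limma, also at an unadjusted p under 0.05. The yaf2 gene LOC101159347, whose mammalian protein takes the place of RYBP in Polycomb complexes, read 6.86 ± 0.919 FPKM in winter and 7.43 ± 0.678 in summer and did not pass. The yaf2-like gene LOC101157658 was lower in winter, at 13.1 ± 0.429 against 18.1 ± 1.33 FPKM (-0.44, adjusted p = 6.33e-05 by limma). The matrilin genes matn1, matn2 and matn4 averaged 0.179, 0.137 and 0.233 FPKM over all libraries and were too low to test. Of those 4 matrilin genes only matn3 averaged above 1 FPKM, and it did so through the winter dates for which it was picked. Its summer mean was 0.803 FPKM.

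Genes that act with the members moved in both directions, as did the genes tested as a whole. Of 40 genes of Polycomb repressive complex 1, 12 rose and 12 fell in winter, where 23.5% of all genes tested rose and 31% fell. Their median difference was 0.05 on the log2 scale against -0.06 for all genes tested. The subunit gene pcgf5 rose from 6.80 ± 1.12 FPKM in summer to 15.2 ± 2.94 in winter (1.05, adjusted p = 2.00e-05 by limma). The cbx8 gene LOC101168624 rose by 1.07 and the cbx7 gene LOC101163772 by 0.58, both coding for chromodomain subunits. The largest falls were those of a gene for casein kinase 2 alpha (LOC101156432, -0.78), an e2f6 gene (LOC101172867, -0.77) and pcgf3 (-0.60). Of the catalytic subunit genes, ring1 rose by 0.50 (adjusted p = 9.28e-05 by limma), while rnf2 did not pass (0.19, adjusted p = 0.0963). The level of rnf2 was 12.8 ± 1.05 FPKM in winter and 11.2 ± 1.72 in summer.

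Of 7 tested genes of the molybdenum cofactor pathway, 3 rose and 2 fell, with a median of 0.23, where 23.5% of all genes rose and 31% fell. The gene mocs1, whose product makes the precursor that molybdopterin synthase uses, rose from 1.86 ± 0.508 FPKM in summer to 5.25 ± 0.522 in winter (1.15, adjusted p = 1.71e-05 by limma). The sulfite oxidase gene suox rose by 0.46 (adjusted p = 0.00243 by limma) and mocos by 0.26 (0.037). The aldehyde oxidase gene aox1 fell from 2.57 to 0.477 FPKM (-1.27, adjusted p = 1.52e-05 by limma) and gphn, which codes for the enzyme of the last steps, by 0.18 (0.0237). The calls of mocos and gphn were lost when single libraries were left out: mocos in 5 fits (adjusted p up to 0.0622) and gphn without replicate 2 of August 2017 (-0.15, 0.0724). Neither suox (0.29, 0.0995) nor mocos (0.21, 0.0805) passed when January to March was set against July to September, and gphn did not under median ratio scaling (-0.12, 0.081).

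Of 32 genes of microtubule plus ends and their tracking, 4 rose and 14 fell, with a median of -0.14. Over all genes tested 23.5% rose and 31% fell, which applies also to the marker and matrix counts below. Of 4 neuron markers 3 fell too, gap43 (-0.94), elavl4 (-0.43) and syt1 (-0.38), and snap25 (0.01) did not pass. The summed neuron markers ran from 670 to 844 FPKM in winter and from 715 to 993 FPKM in summer, and their part in the falls was not tested. A mapre3 gene (LOC101174390), coding for an end-binding protein, rose by 0.49, clasp2 by 0.39 and clip1 by 0.30. The falls included those of 2 genes of the stathmin family, which sequester tubulin (LOC101161784, -1.10, and LOC111948201, -0.97). Of 16 cartilage and perineuronal matrix genes, 3 rose and 6 fell, with a median of -0.01. The genes tnr (0.21), cnmd (0.38) and a vcan gene (LOC101156105, 0.44) rose, and hapln2 (LOC101162474, -1.79), a col9a2 gene (LOC101164656, -0.53) and ptx3 (-0.48) fell. Of 6 oligodendrocyte markers 3 fell, olig1 (-1.80), mpz (-0.93) and olig2 (-0.71), and 1 rose, with sums of 139 to 350 FPKM in winter and 310 to 487 FPKM in summer. Their part in the fall of hapln2 was not tested. The vcan call was lost without replicate 1 of June 2017 (0.40, adjusted p = 0.0575 by limma), and with January to March against July to September those of vcan (0.116), cnmd (0.0721) and tnr (0.0729) were lost. Both genes for type II collagen, the defining collagen of cartilage, were near 0, at means of 0.075 and 0.136 FPKM. The summed cartilage markers lay between 28.9 and 39.8 FPKM in winter and between 28.3 and 38.3 FPKM in summer.

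The genes next to the members on the chromosome, taken from the order of a RefSeq assembly, moved in both directions. Of 7 neighbours tested, 1 was higher and 3 were lower in winter, against 23.5% and 31% of all genes, while slain1 had no tested neighbour. At an unadjusted p under 0.05, 3 of the 7 were higher. The one that rose was ugcg, the glucosylceramide synthase gene beside mocs2, at 37.0 ± 8.49 FPKM in winter against 15.8 ± 1.47 in summer (1.16, adjusted p = 7.01e-06 by limma). Those beside jpt2 were cramp1, at 7.75 and 7.89 FPKM without a call, and mapk8ip3, which was lower (-0.70). Those beside matn3 were ttc32, lower by 1.15, and laptm4a, without a call (0.34, adjusted p = 0.0568 by limma). The one beside rybp was prok2, at 3.67 ± 1.93 FPKM in winter and 2.03 ± 0.829 in summer, also without a call (0.58, adjusted p = 0.0606 by limma).

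The curves of the 5 genes over the 25 dates were alike to different degrees. As all share the season that chose them, these correlations are descriptions. Pearson r of the date means on the log2 scale was highest between jpt2 and matn3 (0.970) and between matn3 and slain1 (0.959), and lowest between matn3 and mocs2 (0.696). Among all other genes with a symbol, those most like jpt2 included daam2 (r = 0.983), edar (0.976), lamp1 (0.972) and ercc3 (0.972). Those most like rybp included rbbp6 (0.953), specc1 (0.945), stk11ip (0.943) and inpp5e (0.935). The genes mc1r (0.976) and mme (0.975) were among the 5 most like matn3, with znrf1 (0.975) and jpt2, and also among the 5 most like slain1 (0.946 and 0.953), with matn3, kiaa0825 (0.937) and cacng2 (0.937). Those most like mocs2 were psme1 (0.933), lta4h (0.929), denr (0.923), cpeb1 (0.919) and fuca2 (0.918). Of these, edar, the ectodysplasin A receptor gene, went from 0.942 FPKM in summer to 6.14 in winter.

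Within a date, where the season is removed, the members did not move together detectably. The difference between replicate 1 and replicate 2 was correlated between each of 10 pairs of genes over 25 dates, and no pair passed (adjusted p from 0.510 to 0.978, two-sided permutation test with 100000 resamples). The pair with the lowest p was jpt2 and mocs2, at r = 0.40 (p = 0.051, adjusted 0.510) and Spearman rho = 0.45 (p = 0.0254, adjusted 0.254) by the permutation test. Their differences had the same sign on 18 of 25 dates, and r was 0.26 without the 2 dates farthest from the median of jpt2. For jpt2 and matn3, the pair most alike over the seasons, r within dates was -0.26 (p = 0.204, adjusted 0.878, by the permutation test over 25 dates).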

How the data were processed

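The authors deposited FPKM values per gene for 50 strand-specific, poly-A selected, paired-end libraries with reads of 100 bases, per the labels' protocols. Bowtie2 2.2.5 and RSEM 1.2.12 are listed in the submitters' processing notes without a role. As the genome build was not given in the sources used here, coordinates are left out, and RefSeq assembly ASM223467v1 served only for names and neighbour order; no genomic or protein sequence was used. Read counts were not used, so no counting interval is given.

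Values were transformed to log2(FPKM + 1). The 16493 genes whose mean reached 1 FPKM were fitted in R 4.3.3 by limma 3.58.1, its prior variance following a trend. Adjusted p-values are Benjamini-Hochberg values across the whole table. The comparisons were the second year against the first (12 matched months, date means, month as block), the same month in both years and the difference of the March to April change (all libraries), and winter against summer in lists of other genes (date means). On simulated data with 200 of 16493 genes changed by a factor of 2 in FPKM + 1, these recovered 95%, 74%, 64% and 93% of the changed genes. The simulations for the same month and for the March to April change held no noise between dates. Their shares therefore cover only the spread between libraries of a date. Peak widths used linear interpolation between date means from September to August.

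The members, lists and relatives were chosen with earlier results of these data known. The text names the members and their relatives, up to 3 genes per direction of each list with the largest change among those that passed, and the 5 genes with a symbol most like each member. Exceptions are ring1, rnf2, the further molybdenum cofactor genes and the neighbours. Some items that the rule names are not reported here. Alternatives were other pseudocounts, no filter, quantile and median ratio scaling, libraries as separate samples, other season blocks and interpolations, and leaving out each library. Interpolating the first year to the second-year sampling day and reading widths on the log2 scale against other genes were added after seeing the data.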

Additional observations from a re-analysis of the deposited data

Results flagged for a closer look

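The matn3 level of June 2017, 1.47 FPKM, stood apart from the other 5 summer dates, of which the highest was 0.770 FPKM; the gap was 0.693 of the range. Of 10 groups of 6 dates checked this was the only one, and chance alone marks about 1 group in 20. The 2 libraries of that date read 1.30 and 1.64 FPKM.

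The March to April fall of jpt2 was smaller in 2017 than in 2016 by 0.98 on the log2 scale, and that of rybp by 2.32, by a test of the difference between years. Both differences kept their call in all 50 fits that left out 1 library, at 0.83 to 1.13 for jpt2 and 2.18 to 2.45 for rybp.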

How the results depend on the processing

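Of 156 results recomputed under up to 65 settings, 0 changed sign while passing the test in either setting. The 156 include peak widths, spring dates and counts of genes, which have no sign to change. Differences in width and spring date between the seasons were not among them. On the log2 scale the difference in width turned for jpt2, rybp and mocs2, and that in spring date for rybp. Another 25 results that passed in neither setting had an estimate of the other sign somewhere, such as the matn3 spring fall. With libraries as separate samples, 5984 genes differed between years against 1975 with date means, or 5952 with a replicate block, which is given for completeness since replicate numbers share only a number (median correlation of replicate differences between dates 0.0097). Then jpt2 (adjusted p = 0.00662), rybp (0.024), mocs2 (0.0389) and slain1 (0.0144) also passed by limma (with the block 0.00747, 0.0262, 0.0419 and 0.0152). Both settings count the 2 libraries of a date as independent, although they may share the conditions of that date. No year difference is therefore read from these calls. Leaving out 1 library gave 738 to 1446 genes for the spring fall against 1343, the lowest without replicate 2 of April 2016. The cause was not tested.

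Read on the log2 scale, width and spring day of year became 134 days and day 89.3 for jpt2 in the first season and 131 and 93.3 in the second, and for matn3 111 and 86.9, then 131 and 100.2. For slain1 they became 104 and 90.5, then 139 and 101; for rybp the widths were 165 and 190.2 days with day 118 in the second season, and for mocs2 176 days and day 112 in the second. The spring day of jpt2 in 2017 was 67.1 with PCHIP interpolation. The matn3 width of the second season was 93.5 days under quantile and 93.3 days under median ratio scaling, which put its 2016 spring day at 59.8.

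Leaving out 1 library moved the rybp width between 153 and 156 days in the first season and between 135 and 155 in the second, with spring days 78.2 to 96.3. It moved the matn3 spring day between 57.9 and 68.0 in 2016 and 73.3 and 77.4 in 2017, with a 2017 width of 94.0 to 98.0 days. In the second season the slain1 width ran from 100.2 to 119 days with spring days 89.8 to 96.1, and the mocs2 width from 40.8 to 138 days, the latter without replicate 1 of November 2016. Monthly sampling, 2 libraries per date and unknown depth limit all widths.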
